A study of Homo sapiens with 28 samples.

Results

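The chromatin of 5 GATA factor genes, GATA2, GATA3, GATA4, GATA5 and GATA6, was described in human embryonic stem cells sorted by cell-cycle phase. A gene's window was its given hg19 span with 5 kb added on either side, and every peak that overlapped a window by at least 1 bp was taken. The windows held 93 of the 317841 peaks in the 16 ChIP-seq peak lists. The cells carry the Fucci system, a pair of fluorescent tags that accumulate and are degraded at different points of the cycle, and were separated by it into 4 groups. By the labels these were early G1 (DN), late G1 (KO2), S (AzL) and G2/M (AzH). The series holds 28 samples: 16 ChIP-seq libraries (H3K4me3, H3K27me3, H3K27ac and H3K4me1 in each fraction), 8 4C-seq libraries and 4 inputs, which were not analysed here. All fractions came from the same kind of culture, a defined medium with neither serum nor feeder cells that contained Heregulin b1, Activin a, Longr3 IGF-1 and FGF2. The labels name no other treatment, genotype or clone. Each mark had 1 library per fraction, so no difference between fractions could be tested against replicate error, and values are set beside those of the whole list instead. Where 4 values stand together, they follow the cycle from early G1 to G2/M.

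GATA factors are zinc-finger transcription factors that bind DNA at sites built around the letters GATA. GATA2 is needed by blood stem and progenitor cells, GATA3 by T cells, breast epithelium and trophoblast, and GATA4, GATA5 and GATA6 by endoderm, heart and gut. In embryonic stem cells such lineage genes are classical Polycomb targets: they lie in broad stretches of H3K27me3, the methylation mark written by the Polycomb complex PRC2. Where H3K4me3, the mark of active and poised promoters, overlaps H3K27me3, the chromatin is called bivalent. H3K27ac is found at promoters and enhancers in use, and H3K4me1 at enhancers.

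Promoters rich in CpG dinucleotides are the usual sites of both H3K4me3 and Polycomb binding, and the promoters of the genes that carried or lacked H3K4me3 are therefore shown. RefSeq promoters of 300 bases (250 before and 50 after a transcription start, assembly GRCh38.p14) were matched by symbol for 3 of the 5 genes, with 9 start sites in all. For each of these genes the promoter with the most CpG is printed 5′ to 3′ on the gene's strand, with every CpG in capitals.
GATA2, chr3:128493152-128493451, minus strand: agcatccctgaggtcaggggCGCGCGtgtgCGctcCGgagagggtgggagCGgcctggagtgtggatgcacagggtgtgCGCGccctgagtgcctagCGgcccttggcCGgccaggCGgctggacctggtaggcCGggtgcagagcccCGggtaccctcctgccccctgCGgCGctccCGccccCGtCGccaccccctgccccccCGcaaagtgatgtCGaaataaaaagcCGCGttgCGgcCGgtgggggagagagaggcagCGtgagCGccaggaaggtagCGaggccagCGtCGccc
GATA3, chr10:8053391-8053690, plus strand: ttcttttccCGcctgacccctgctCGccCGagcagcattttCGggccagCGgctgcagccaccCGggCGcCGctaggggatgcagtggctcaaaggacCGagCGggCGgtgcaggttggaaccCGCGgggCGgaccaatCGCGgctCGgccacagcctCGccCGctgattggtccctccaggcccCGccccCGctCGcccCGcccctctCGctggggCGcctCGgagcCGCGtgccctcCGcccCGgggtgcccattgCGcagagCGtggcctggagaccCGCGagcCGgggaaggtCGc
GATA6, chr18:22169339-22169638, plus strand: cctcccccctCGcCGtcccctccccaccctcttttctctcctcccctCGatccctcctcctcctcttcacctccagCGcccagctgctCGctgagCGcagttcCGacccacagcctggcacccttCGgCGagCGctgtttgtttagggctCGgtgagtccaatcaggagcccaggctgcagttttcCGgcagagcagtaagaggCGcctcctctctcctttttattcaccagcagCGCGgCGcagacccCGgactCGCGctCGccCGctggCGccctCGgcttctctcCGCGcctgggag
The GATA2 promoter held 29 CpG, the GATA3 promoter 36 and the GATA6 promoter 25, against a median of 14 (quartiles 4 and 28) over 35116 RefSeq promoters. The other start sites held fewer, 22 at the inner GATA2 start and 5 to 29 at the 5 others of GATA3. GATA3, whose 36 was the highest of 6 start sites, had no H3K4me3 peak in any fraction. At the start site on the outer end of each gene the counts were 29 at GATA2, 16 at GATA3 and 25 at GATA6. The letters GATA, read on both strands, occurred in neither GATA2 promoter, not in the GATA6 promoter, and in 3 of the 6 GATA3 promoters, and 49.7% of all RefSeq promoters held them. A match describes the letters only. These positions are in GRCh38 and were not placed on the hg19 peaks described next.

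All 5 genes carried H3K27me3 in all 4 fractions, 20 of 20 gene and fraction pairs. H3K4me3 was listed in 8 of the 20 pairs, at GATA2, GATA5 and GATA6. H3K27ac was listed in 2 pairs, both at GATA3, and H3K4me1 in 1, at GATA2. Of the 93 peaks, 80 were H3K27me3, 10 H3K4me3, 2 H3K27ac and 1 H3K4me1. When H3K27me3 peaks of the 4 fractions were merged, 18.0% of all merged regions were listed in every fraction, and 98.7% of those of at least 5 kb were. Each GATA gene was overlapped by such a long region, called its domain here, so being listed throughout is what nearly all domains of this length showed.

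**Figure D1:**
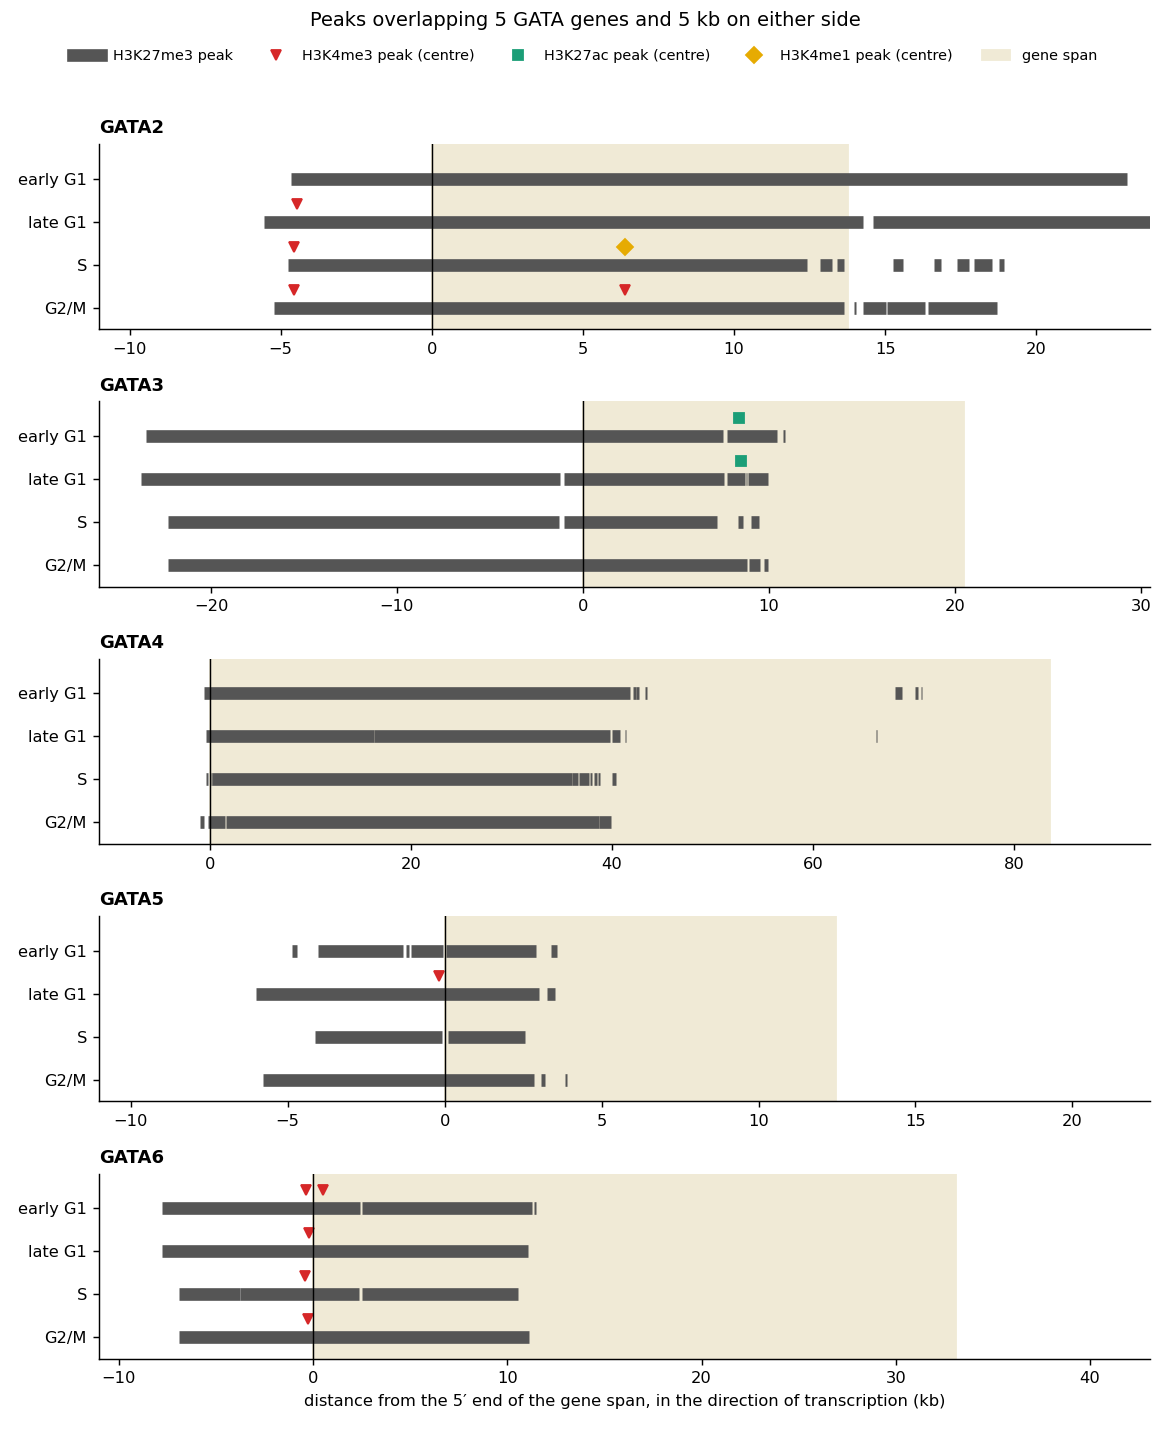
Peaks along each gene by fraction, with the distance from the 5′ end of the given span in kb on the x axis and 1 row per fraction; grey bars are H3K27me3 peaks, symbols are the centres of peaks of the other marks, and shading is the gene. H3K27me3 covers the 5′ end or lies within 76 bp of it in all 20 rows (at GATA4 in S the nearest peak is 75 bp long and the long one starts at +201 bp), and every H3K4me3 symbol lies over H3K27me3.

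In hg19 the spans used were chr3:128198265-128212030 for GATA2 (minus strand), chr10:8096667-8117164 for GATA3 (plus), chr8:11534000-11617509 for GATA4 (plus), chr20:61038553-61051026 for GATA5 (minus) and chr18:19749404-19782491 for GATA6 (plus). Distances below are from the 5′ end of the span along the direction of transcription, negative upstream. No hg19 annotation was at hand, so start sites, exons and introns were not assigned. The GATA4 start is the one given with the span, and a form of the gene that starts further downstream would change every GATA4 distance below. For the same reason the peaks were not compared with marker genes of embryonic stem cells, and the GATA cofactor genes were not analysed here; peak lists hold no expression values.

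The H3K27me3 lists held 19989 to 31682 peaks, fewest in S and most in late G1, and their total lengths were 27.02, 32.02, 17.17 and 24.26 Mb. H3K4me3 lists were closer in size, 24757 to 28735 peaks. H3K27ac lists ran from 10268 peaks in S to 32521 in late G1, and H3K4me1 lists from 1878 in early G1 to 6280 in S. The number of reads behind each list is unknown here. A peak list is made from many cells, so a mark carried by fewer cells and less of it per cell cannot be told apart.

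GATA4, an early regulator of endoderm and heart, had the longest H3K27me3 domain of the 5, 42.8 kb, at rank 19 among 36340 merged regions. Peaks covered 42.4, 41.0, 38.6 and 40.3 kb of it. In early G1 the domain was 1 unbroken peak of 42.4 kb, the ninth-widest of the list. In late G1 the widest peak was 23.4 kb (rank 90), because a gap of 75 bp split the run 16276 bp downstream of the 5′ end. In S and G2/M the widest peaks were 35.8 kb (rank 9) and 37.1 kb (rank 18). The domain began near the 5′ end of the span and ended about midway along the gene: its last base lay at +41.8 kb of an 83.5 kb span. GATA4 coverage in S was 0.909 times that in early G1, while the number of pieces ran 1, 4, 10 and 4. In S the 5′ end of the given span was not covered, and the nearest peak, 75 bp long, lay 76 bp away.

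GATA3, a regulator of T cells and trophoblast, had a domain of 34.5 kb (rank 46) that was placed differently, from 24.04 kb upstream of the 5′ end to 10.4 kb downstream. Covered lengths were 34.0, 33.5, 30.2 and 33.4 kb. The widest peak measured 31.05 kb in early G1 and 31.1 kb in G2/M, each at rank 28 of its list, against 22.5 kb in late G1 and 21.05 kb in S. The lower values went with a gap about 1 kb upstream of the 5′ end, 200 bp long in late G1 and 275 bp in S. In all 4 fractions the tallest point of the GATA3 domain lay upstream of the gene, between 6.44 and 5.97 kb before its 5′ end. Downstream, the H3K27me3 ended inside the gene, and the part of the window that it covered was 50.3, 47.6, 41.4 and 48.0%.

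GATA2, a regulator of blood progenitors, lay whole inside its domain, 34.55 kb long (rank 45), which ran from 5.62 kb upstream to 28.9 kb downstream of the 5′ end, past the end of the gene. Of the window, 98.5, 98.5, 81.7 and 96.9% was covered. In early G1 this was a single peak of 27.65 kb (rank 38), and in the other fractions the widest peak was 19.8, 17.2 and 18.9 kb. The domain was the one of the 5 that thinned most in S: covered length was 33.05, 34.05, 21 and 29.85 kb, in 5, 3, 17 and 18 pieces. In S a single GATA2 peak ran from 4.75 kb upstream to 12.4 kb downstream of the 5′ end, and H3K27me3 further downstream was in short pieces.

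GATA6, an endoderm regulator and the viewpoint gene of 4 of the 4C libraries, had a domain of 19.03 kb (rank 183) that ran from 7.78 kb upstream of the 5′ end to 11.2 kb downstream. It was covered over 18.9, 18.8, 17.7 and 18.9 kb. In late G1 and G2/M nearly all of it was 1 peak, of 18.8 and 18.0 kb. In early G1 and S the run was broken near +2.4 kb, by 125 and 150 bp, and the widest peaks were 10.15 and 8.08 kb. No other of the 5 domains was covered so evenly, and 92.8% of its length lay in peaks of every fraction.

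GATA5, an endoderm and heart factor, had the shortest domain, 9.7 kb (rank 496), around the 5′ end from 6.70 kb upstream to 3.0 kb downstream. Covered lengths were 7.9, 9.3, 6.5 and 9.38 kb. In late G1 and G2/M a single peak of 9.0 and 8.65 kb crossed the 5′ end. In early G1 and S the 5′ end was not covered: a gap of 100 bp lay over it in early G1 and another, of 175 bp, in S. The widest GATA5 peaks in those fractions were 2.88 and 4.05 kb. GATA5 was the one gene with a longer stretch covered by H3K27me3 in both late G1 and G2/M than in early G1, in the window as in the domain. The height of its tallest peak, given below, was greatest in early G1.

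The share of a domain covered in all 4 fractions was 59.0% at GATA2, 64.4% at GATA5, 87.7% at GATA3, 88.6% at GATA4 and 92.8% at GATA6. Over the 1376 merged regions of at least 5 kb listed in all fractions, the median of that share was 65.2% (quartiles 50 and 78.2). GATA3, GATA4 and GATA6 were above the upper quartile, and GATA2 and GATA5 were near or below the median.

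**Figure D2:**
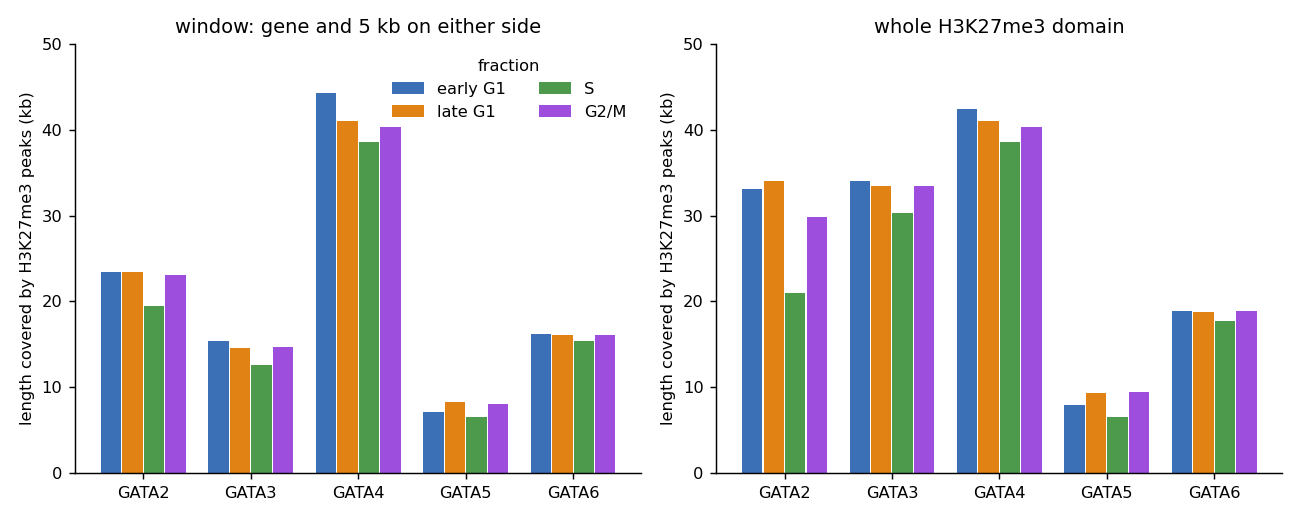
Length covered by H3K27me3 peaks in kb for each gene (bars, 1 library per fraction, coloured by fraction), within the window on the left and over the whole domain on the right. S is the lowest of the 4 bars at every gene in both panels, and the drop is widest at GATA2 in the domain panel, from 34.05 kb in late G1 to 21 kb in S.

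Within the windows, H3K27me3 covered 44.3, 41.1, 38.6 and 40.3 kb at GATA4 and 23.4, 23.4, 19.4 and 23.03 kb at GATA2. At GATA6 it covered 16.2, 16.05, 15.4 and 16.1 kb, at GATA3 15.3, 14.5, 12.6 and 14.6 kb, and at GATA5 7.05, 8.25, 6.50 and 8.05 kb. Together the windows held 106.3, 103.3, 92.5 and 102.1 kb. All 5 genes had the least in S. Among the 1376 long regions 90.1% had the least in S as well, so the order is what most domains showed. Over the domains the most was found in early G1 at 3 genes (GATA3, GATA4 and GATA6), where 25.9% of long regions had theirs. At GATA6 this was close to a tie, 18.875 kb in early G1 against 18.85 kb in G2/M, with peak ends on a grid of 25 bp. GATA2 had the most in late G1, as 65.1% of long regions did, and GATA5 in G2/M.

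Within the windows the drop was smaller than over the list. Window coverage in S was 0.829 times that in early G1 at GATA2, 0.824 at GATA3, 0.871 at GATA4, 0.922 at GATA5 and 0.949 at GATA6, and 0.870 for the sum. Over the whole list the ratio was 0.635, and over the long regions its median was 0.786 (quartiles 0.642 and 0.894). Whole domains are the like measure to set beside these regions. Their ratios were 0.635 at GATA2, 0.823 at GATA5, 0.889 at GATA3, 0.909 at GATA4 and 0.936 at GATA6. GATA4 and GATA6 exceeded the upper quartile of long regions, GATA3 and GATA5 lay between the median and the upper quartile, and GATA2 lay below the lower quartile and at the ratio of the whole list. Between early and late G1 the median ratio over the long regions was 1.05 (quartiles 0.996 and 1.16). The domains had 1.03 at GATA2, 0.984 at GATA3, 0.966 at GATA4, 1.18 at GATA5 and 0.996 at GATA6. Over the same step the list grew by a ratio of 1.19. The 5 windows, which leave out parts of the domains, together came to 0.972. As a result the windows made up 0.393, 0.323, 0.539 and 0.421% of the list's length. The number of peaks called per library differed as given above, and its part in these ratios was not tested.

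**Figure D3:**
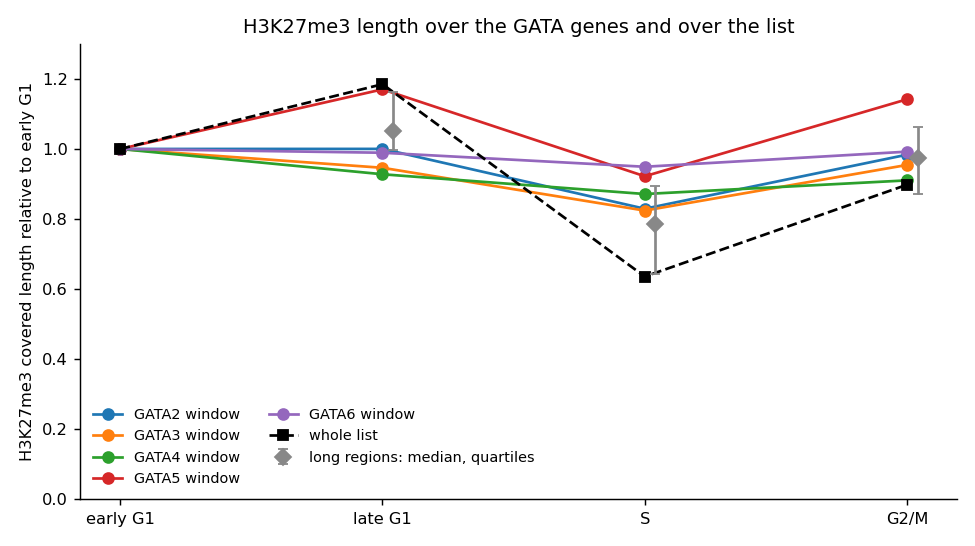
H3K27me3 covered length in each fraction divided by that in early G1 (y axis, no unit) for the 5 windows (coloured lines), the whole list (dashed) and the median and quartiles of 1376 long regions (grey). In S the windows lie between 0.824 and 0.949, above the list at 0.635.

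Peak heights are the authors' values on a scale not given in the sources used here, so each was placed within its own list as a percentile, the share of the list's peaks with a height that were lower. The tallest H3K27me3 peak of every gene stood between percentiles 95.9 and 99.8. The exact Clopper-Pearson 95% interval was less than 0.3 percentile points to either side of these values. It treats the peaks of a list as independent draws and covers neither the error of a height nor variation between libraries.

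By height percentile GATA4 stood highest in early G1, late G1 and G2/M, and GATA2 in S. By the authors' score GATA3 stood highest in early and late G1, at percentiles 99.66 and 99.82 against 99.63 and 99.76 at GATA4. The tallest GATA4 peak had heights of 350.3, 641.9, 285.4 and 387.8, at percentiles 99.7, 99.8, 99.3 and 99.7. That of GATA2 had heights of 312.8, 313.2, 403.4 and 268.7, at percentiles 99.4, 99.3, 99.6 and 99.3. By height S was the highest fraction of GATA2 although coverage there was the lowest. By score the GATA2 percentiles were 98.4, 99.6, 99.2 and 99.7, highest in G2/M. GATA3 had heights of 320.8, 245.9, 174.9 and 226.9, at percentiles 99.5, 98.9, 98.3 and 99.0. At GATA3, GATA5 and GATA6 early G1 was the highest by height and S the lowest. By score GATA3 was highest in late G1, with percentiles of 99.7, 99.8, 98.9 and 99.3. GATA5 heights of 284.7, 195.6, 111.0 and 150.8 stood at percentiles 98.9, 98.1, 95.9 and 97.7, and GATA6 heights of 274.9, 189.4, 119.4 and 153.2 at 98.8, 97.9, 96.4 and 97.8. A few heights on the chromosome of GATA5 were missing, and by the authors' score its best peaks stood at percentiles 98.8, 97.7, 96.0 and 98.0.

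**Figure D4:**
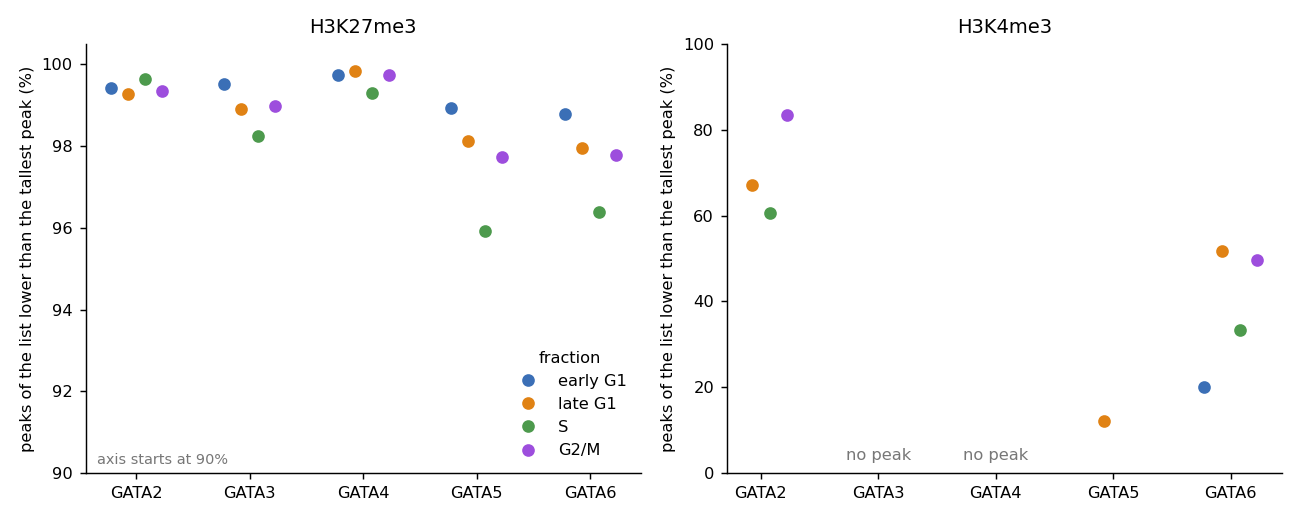
Percentile of the tallest peak within its own list (y axis, %) for H3K27me3 on the left, with an axis that starts at 90%, and H3K4me3 on the right; each point is 1 library. All H3K27me3 points lie above 95%, while H3K4me3 points spread from 12.1 at GATA5 to 83.5 at GATA2.

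The tallest H3K27me3 point kept its place from late G1 to G2/M at GATA2 and GATA4. It lay at +6.37, +6.35 and +6.39 kb of the GATA2 5′ end and at +12.0, +12.0 and +12.1 kb of the GATA4 5′ end. In early G1 it was elsewhere, at +2.48 kb in GATA2 and +28.5 kb in GATA4. At GATA3 it stayed upstream in all 4 fractions, as given above. At GATA6 it was at -2.22, +1.37, +2.79 and +1.20 kb, and at GATA5 at +1.04, -0.51, -0.47 and +1.05 kb.

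All 10 H3K4me3 peaks in the windows were narrow, 75 to 550 bp, and lay with their whole length inside H3K27me3 of the same fraction, which made 8 of 20 gene and fraction pairs bivalent by overlap. Over all merged H3K4me3 regions the share that overlapped H3K27me3 of the same fraction was 21.0, 21.6, 15.5 and 19.7%. Those are shares of regions that have H3K4me3, while the 20 pairs include pairs without it, so the 2 are unlike measures. H3K4me3 in all fractions was found in 26.2% of long H3K27me3 regions, and no H3K4me3 in any fraction in 44.4%. GATA6 was of the first kind and GATA3 and GATA4 of the second. A nearer measure to set beside the pairs is the share of long regions with H3K4me3. By fraction, 1, 3, 2 and 2 of the 5 genes had H3K4me3, and 41.9, 37.9, 34.4 and 45.6% of the long regions did.

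Of merged H3K4me3 regions 47.7% were listed in all 4 fractions, wherever they lay. GATA6 was the one gene of the 5 with H3K4me3 in all 4 fractions, each time just upstream of the 5′ end. The peak was 250 bp long in early G1 (478 to 229 bp upstream), 400 bp in late G1 (403 to 4 bp upstream), 325 bp in S (553 to 229 bp upstream) and 475 bp in G2/M (478 to 4 bp upstream). Its heights were 25.3, 38.7, 22.9 and 34.1. In late G1 and G2/M the peak was wider and reached the 5′ end, and in early G1 and S it stopped 229 bp short of it. The percentiles were 20.0, 51.8, 33.3 and 49.7, with exact 95% intervals of 19.5 to 20.5, 51.1 to 52.4, 32.7 to 33.9 and 49.1 to 50.3. As above, these intervals hold no variation between libraries. By score the percentiles were 26.7, 56.7, 33.8 and 52.9, in the same order of fractions. A second GATA6 peak was listed in early G1 alone, 125 bp long at +447 to +571 bp, with a height of 16.5 near the bottom of its list (percentile 0.164). GATA6 H3K4me3 thus ranked higher in late G1 than in the early G1 list. The same was so of 45.5% of all merged H3K4me3 regions with heights in both, and of 64.6% of the 2669 that overlapped H3K27me3 in both, whose median shift was 6.22 percentile points (quartiles -5.28 and 18.4). Without replicates, and with ranks from lists that differ in length and in height, this is no measure of a change in the amount of the mark. The median heights of the H3K4me3 lists were 63.8, 36.8, 37.1 and 34.5.

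GATA2 had H3K4me3 in late G1, S and G2/M and none in early G1. The peak lay upstream of the 5′ end, 4745 to 4196 bp away in late G1 (550 bp), 4720 to 4371 bp in S (350 bp) and 4770 to 4321 bp in G2/M (450 bp). Its heights were 63.7, 55.1 and 120.8, at percentiles 67.2, 60.6 and 83.5. The GATA2 peak in G2/M was the highest-ranked H3K4me3 peak at any of the 5 genes. S had the lowest of the 3 percentiles at GATA2, as it had among the same fractions at GATA6 and at 32.5% of H3K4me3 regions with heights in all 3. The GATA2 peak sat near the upstream edge of the H3K27me3 domain. Of all merged H3K4me3 regions 3.13% were listed in every fraction but early G1, and of long H3K27me3 regions 3.12% had H3K4me3 in that pattern. GATA2 also held a second H3K4me3 peak in G2/M, 225 bp long at +6280 to +6504 bp (height 27.8, percentile 43.1). Of merged H3K4me3 regions 10.9% were listed in G2/M alone. GATA2 held the only H3K4me1 peak of the windows, in S, 150 bp long at +6330 to +6479 bp (height 15.5, percentile 47.8). Both covered the place where GATA2 H3K27me3 was tallest in late G1, S and G2/M. The signal of the inputs at this place was not examined. Any H3K4me1 peak was found in 9.59% of the long regions.

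GATA5 had H3K4me3 in late G1 alone, a peak of 75 bp from 224 to 150 bp upstream of the 5′ end, with a height of 17.4 at percentile 12.1. Of all merged H3K4me3 regions 5.24% were listed in late G1 alone. GATA3 and GATA4 had no H3K4me3 peak in the window or elsewhere in the domain, in any fraction. H3K4me3 peaks of all 4 fractions did lie beyond the far end of GATA4, 92.8 to 94.0 kb from its 5′ end, outside the window and the domain.

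H3K27ac was listed at GATA3 alone, inside the gene and close to the bottom of its lists. The peak was 125 bp long in early G1, at +8309 to +8433 bp, with a height of 19.8 (percentile 4.53). In late G1 it was 75 bp long, at +8484 to +8558 bp, with a height of 18.3 (percentile 4.80). The 2 peaks did not overlap each other, and both lay within the H3K27me3 domain, where 5.16% of long regions held any H3K27ac peak. The lists of S and G2/M, which were shorter, held none at the 5 genes.

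The 4C-seq libraries read ligation to HindIII sites from viewpoints at GATA6 and SOX17, an endoderm factor gene. Reads are PCR products without molecular identifiers, so read numbers can rest on few ligations, and sites with any read were counted as well. From GATA6, the GATA4 window on another chromosome had reads at 8, 8, 10 and 7 of its 16 sites, or 50, 50, 62.5 and 43.8%, where all sites of its chromosome gave 6.57, 7.44, 8.12 and 4.58%. The reads numbered 1713, 1861, 562 and 1002, and the single highest site held 27.6 to 82.5% of them. Among 29969 windows of the same length on chromosomes other than that of GATA6, 1.31, 1.74, 0.868 and 0.791% had at least as many sites with reads, and 0.0934, 0.0701, 1.80 and 2.60% at least as many reads. The 7 GATA4 sites inside the H3K27me3 domain held 1329, 1300, 520 and 960 of the reads. GATA2 and GATA3 held fewer reads than GATA4. The 3 GATA2 sites had 0, 2, 0 and 0 reads, and 5 GATA3 sites had 11, 252, 1 and 0, each at a single site. Per GATA3 site the reads were 2.2, 50.4, 0.2 and 0, against 4.93, 5.10, 2.81 and 5.02 over its chromosome. No site fell in the GATA5 window.

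From SOX17, which shares a chromosome with GATA4 at a distance of 43.8 Mb, 16, 13, 16 and 10 of the 16 GATA4 sites had reads. Over all sites of that chromosome 45.9, 38.7, 49.5 and 27.8% had reads. Windows at a like distance from SOX17 were not counted. Reads per GATA4 site were 438, 418, 242 and 436, against 152, 143, 99.3 and 206 per site over the chromosome. The GATA6 window, with 14 sites, had reads from SOX17 at 2, 3, 4 and 2 of them, 558, 392, 237 and 958 in all. Of windows of its length 0.376, 1.11, 1.16 and 0.432% held at least as many reads, but 24.1, 6.31, 3.39 and 11.9% at least as many sites with reads, so GATA6 stood out less by sites than by reads. From SOX17 the GATA2 window had 13, 7, 4 and 0 reads and the GATA3 window 13, 164, 129 and 23. Apart from the GATA6 window read from its own viewpoint, GATA4 had the most sites with reads in every library, and it was also the window with the most sites.

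**Figure D5:**
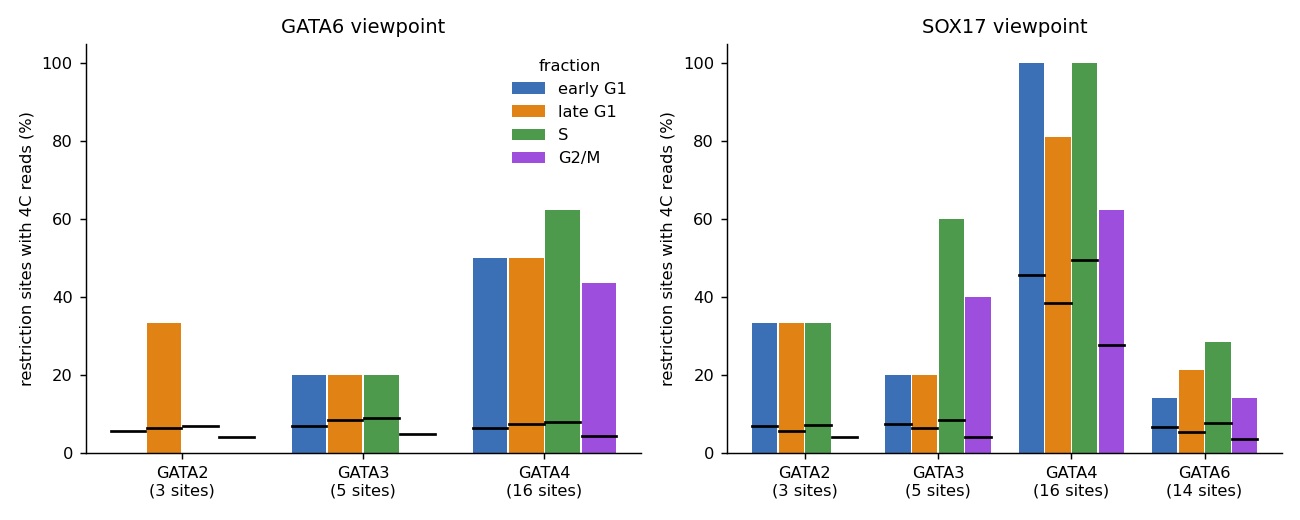
Share of HindIII sites with at least 1 4C read (y axis, %) in each GATA window, by fraction (coloured bars), from the GATA6 viewpoint on the left and SOX17 on the right; black lines are the share over all sites of the same chromosome. At GATA4 every bar lies above its line, from 43.8% upwards, while windows with 3 or 5 sites move by 20% or more with a single site.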

How the data were processed

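ChIP-seq for 4 histone marks and 4C-seq from 2 viewpoints were measured in 4 sorted fractions, with groups taken from the labels. Per the submitters' processing notes, Bowtie 0.12.7, hg19 and mm9 were used, in roles the notes as given do not say. The peak caller, its settings and any use of inputs were not given in the sources used here, and positions were read as hg19. Each deposited list gives, for 1 library, a peak's start, end and length, the place of its tallest point, a signal value used as the height, and a score. These meanings were read from the values. Heights were 0, and treated as missing, on the chromosomes coded 22 to 24 and for a few peaks elsewhere. Heights and scores are the authors' values and served for ranks within a list. The deposited 4C table gives counts of reads per site, and no per-sample column was left unused.

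Peaks overlapping each span and 5 kb on either side were taken by at least 1 bp. Covered length is the union of peaks, and domains are H3K27me3 regions merged over fractions. The viewpoint was taken as the site with the most reads. No p-value was computed. Python 3.11.15, numpy 2.4.6, pandas 2.3.3, scipy 1.17.1 and matplotlib 3.10.9 were used, and overlap functions were tested on simulated data. All 5 genes are named, with the widest and tallest peak of each mark and fraction; the gaps, the GATA2 spot and the 4C windows were chosen after their values were seen. The members and lists were chosen with earlier results of these data known. Alternatives were other flanks, stricter lists, equal numbers of peaks per fraction, a minimum peak length, coverage of a peak by 50%, the score in place of the height, and whole domains. Promoter sequences came from RefSeq (GRCh38.p14).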

Additional observations from a re-analysis of the deposited data

How the results depend on the processing

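Of 58 alternative values, 49 stayed within a ratio of 1.5 of the reported ones, up or down, and 9 did not. All the covered lengths stayed within it. Pairs with H3K4me3 fell from 8 to 2 for the gene span alone, and so did pairs with overlapping H3K4me3 and H3K27me3, because the peaks lie mostly upstream of the spans. In the upper 50% of each list by height both counts were 5, and by score, an alternative chosen after seeing the data, the overlapping pairs were also 5. Pairs with H3K27ac (2) and with H3K4me1 (1) came to 0 in the upper 50% by height and 0 with equal numbers of peaks per fraction. A flank of 10 kb gave 12 pairs with H3K4me3 in place of 8, just within that ratio. The 4 added came from the peaks beyond the far end of GATA4, in every fraction. Those peaks lie outside the gene span and were not assigned to a gene. The length covered by H3K27me3 over the 5 genes was least in S in all 8 settings and most in early G1 in 7. With whole domains it was most in late G1. The comparison of GATA6 H3K4me3 ranks gave no value for peaks of at least 500 bp or in the upper 50% by height, where no gene was left. With a flank of 10 kb, 2 windows had a peak in both early and late G1. The GATA6 peak ranked higher in late G1, and the peak beyond the far end of GATA4 did not (percentiles 70.6 and 69.1). No paired analysis was possible because every mark and fraction has 1 library. With 1 library per group and unknown read numbers, the absence of a peak sets no limit on the mark.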
